A study of Saccharomyces cerevisiae with 6 samples.

Results

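Yeast carrying a doubly substituted TOR1 at 9 mM caffeine, the highest dose of the study, was set against yeast carrying unaltered TOR1 at 3 mM, the lowest dose. The comparison rests on 2 of the study's 6 two-colour arrays and asks whether the mutant at the top dose resembles WT at the bottom dose, and which functions break that likeness. The 2 arrays are defined by their genotype and dose. The mutant cells carried 3HA-TOR1 [I1954V + W2176R], and on their array RNA after 9 mM caffeine was labelled with Cy5 against RNA of the same strain without caffeine in Cy3. The WT cells carried 3HA-TOR1 with no substitution, and their array paired 3 mM caffeine with no caffeine in the same dye order. Both strains were W303a laboratory yeast in which tor1 was deleted, so the only TOR1 came from the introduced 3HA-TOR1 copy, and no control strain kept its chromosomal gene. Each genotype and dose had 1 array, polyadenylated RNA was measured, and the labels gave no exposure time or culture number. The log ratios hold no expression level, so they could not check mating type or genotype.

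TOR complex 1 is a protein kinase complex that drives ribosome production and translation when nitrogen is plentiful. While it is active it keeps the GATA factor Gln3, the stress factors Msn2 and Msn4, and the Rtg retrograde pathway held back. When it is inhibited, genes for using poor nitrogen sources and stress genes are switched on and ribosomal genes are turned down. Caffeine inhibits this complex in yeast and also stresses the cell wall, and TOR1 alleles with altered caffeine sensitivity have been used to ask which responses pass through the complex.

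All values below are log2 ratios, taken as caffeine over no caffeine, and centred on the median named gene of their array. The sources used here do not state which channel was the numerator. Cy5 over Cy3 is the usual order, and with Cy3 on top every sign given would be turned. The deposited medians were -0.54 for the mutant at 9 mM and -0.30 for WT at 3 mM, so centring raised mutant minus WT by 0.231. The 5212 named genes measured on every one of the 6 arrays were used throughout, of 5397 measured on both arrays compared here. The number of arrays limits the precision, and genotype and dose differ together between these 2 arrays, so their parts in a difference cannot be told apart from them. Values of WT at 9 mM are therefore given beside the pair for many of the lists and genes, though not for all.

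The mutant at 9 mM and WT at 3 mM shared a direction more than a size. Across the 5212 genes Pearson's r was 0.488 and Spearman's rho 0.484, and 66.5% of genes had the same sign on both arrays. These are descriptions across genes of 2 libraries, which are not independent replicates, and a preference of a gene for 1 dye, if equal on both arrays, would add to them. The mutant array was the wider of the pair, with a median absolute deviation of 0.633 in the mutant at 9 mM and 0.48 in WT at 3 mM. The median gene lay 0.514 apart. A total of 1190 genes (22.8%) were at least 2-fold apart, 555 (10.6%) higher and 635 (12.2%) lower in the mutant.

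The answer to which WT dose lay nearest depended on the measure. By the median absolute difference, the mutant at 9 mM was nearest to WT at 3 mM (0.514), against 0.624 for WT at 6 mM and 0.567 for WT at 9 mM. By correlation it was nearest to WT at 9 mM, with r of 0.488, 0.498 and 0.661 at 3, 6 and 9 mM. The first order turned when the arrays were brought to a common spread: after scaling to 1 median absolute deviation the differences were 0.532, 0.585 and 0.492 from WT at 3, 6 and 9 mM. Gene by gene, 1974 genes (37.9%) had their mutant 9 mM value closest to WT at 3 mM, 1360 (26.1%) to WT at 6 mM and 1878 (36.0%) to WT at 9 mM. For comparison in the other direction, WT at 3 mM correlated with the mutant at 3, 6 and 9 mM at 0.365, 0.418 and 0.488.

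**Figure D1:**
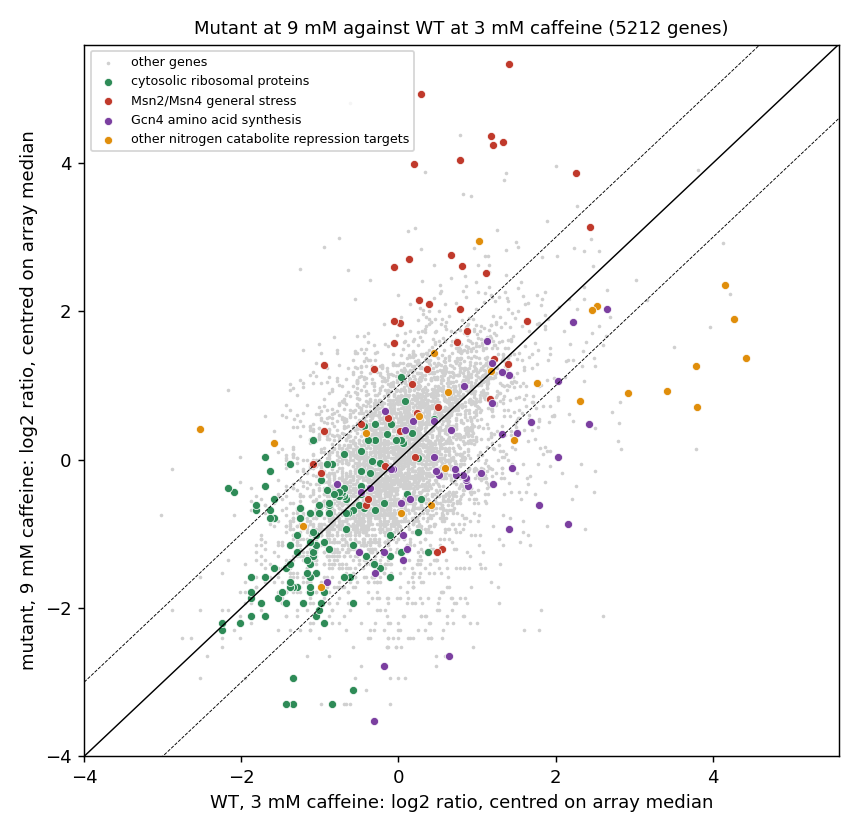
Each point is 1 of 5212 genes, with its centred log2 ratio in the mutant at 9 mM on the vertical axis and in WT at 3 mM on the horizontal axis; the solid line marks equal values and the dashed lines 2-fold. Ribosomal proteins straddle the solid line, most stress genes lie above it and most Gcn4 genes below it (r over all genes 0.488).

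Many of the strongest WT genes at 3 mM were strong in the mutant at 9 mM too. At least 2-fold above the array median were 748 genes (14.4%) in the mutant and 499 (9.57%) in WT, and 252 (4.83%) were above it on both, which is 33.7% of the mutant's genes and 50.5% of WT's. At least 2-fold below were 730 (14%) in the mutant and 455 (8.73%) in WT, with 212 (4.07%) on both, 29.0% of the mutant's and 46.6% of WT's. Of the 252 genes high on both, 154 lay within 0.5 of each other, and of the 212 low on both, 165 did. Picking genes that pass the same cut on both arrays brings their 2 values together. Over all 5212 genes the median distance was 0.514. Only 11 genes (0.211%) were 2-fold above the median in the mutant and 2-fold below it in WT, and 20 (0.384%) the reverse.

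The gene highest on both arrays by its lower value was CHA1, the catabolic serine and threonine deaminase, with 3.91 in the mutant at 9 mM and 3.81 in WT at 3 mM. YER079W, a gene of unknown function, had 2.81 in the mutant and 2.56 in WT, and POR1, the porin of the outer mitochondrial membrane, had 2.61 and 2.47 in the same order. On the 2 arrays these 3 genes reached in the mutant at 9 mM the level of WT at 3 mM. PDH1, an enzyme linked to propionate breakdown, had 2.92 in the mutant and 4.12 in WT, and BAT2, the cytosolic branched-chain aminotransferase, had 2.36 in the mutant and 4.15 in WT. The cell wall protein gene PST1 had 2.42 in the mutant and 3.03 in WT, the aldehyde dehydrogenase gene ALD2 had 3.14 in the mutant and 2.43 in WT, and HSP33 had 2.98 in the mutant and 2.45 in WT. Thus some of the shared genes were lower and others higher in the mutant.

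Low on both arrays were GUA1, GMP synthase, with -2.94 in the mutant at 9 mM and -2.53 in WT at 3 mM, and NSR1, a nucleolar protein of ribosome synthesis, with -2.41 in the mutant and -2.64 in WT. The ribosomal protein genes RPS6B and RPL13A had -2.30 and -2.20 in the mutant, and -2.25 each in WT. The cytosolic aldehyde dehydrogenase gene ALD6 had -2.52 in the mutant and -2.25 in WT. APT1, an adenine salvage enzyme, had -2.41 in the mutant and -2.25 in WT, the methyltransferase gene EFM4 had -2.65 and -2.43 in that order, and TRI1 had -2.41 and -2.75. All 8 of these genes differed by less than 2-fold between the arrays, which picking the lowest on both arrays favours. Their deposited ratios were 0.17 or less on both arrays, in steps of 0.01.

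Since no dose had a replicate, the only test available used all 6 arrays. A straight line in dose through 0 was fitted for each genotype with limma, and the fitted mutant value at 9 mM was set against the fitted WT value at 3 mM, with p-values adjusted by Benjamini and Hochberg's method over 5212 genes. A gene is called below when its adjusted p was under 0.05. The test compares lines, not the 2 arrays, so it can differ from them where a response is not a line: the median gene's observed value lay 0.336 from its line in WT at 3 mM, against 0.208 in the mutant at 9 mM. The lines made WT at 3 mM smaller, with a median absolute value of 0.242 fitted and 0.48 observed. In the mutant at 9 mM these were 0.708 and 0.633, and for the difference 0.598 and 0.514. CHA1, nearly equal on both arrays, was called higher with a fitted difference of 2.42 ± 0.65 (SE; limma adjusted p = 0.0436). POR1, also nearly equal on both, was called higher with a fitted difference of 1.94 (limma adjusted p = 0.0495). By this test 303 genes (5.81%) were called, 88 (1.69%) higher and 215 (4.13%) lower in the mutant, and 249 of them were also at least 2-fold apart on the arrays, 70 (1.34%) higher and 179 (3.43%) lower.

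The 303 calls depend on the form of the lines. With an intercept shared by all 6 arrays, which absorbs a constant dye bias of a gene, limma called 0 genes at an adjusted p below 0.05, although 684 genes had an unadjusted p below 0.05. With an intercept for each genotype 134 were called, and with log2(1 + dose) in place of dose 279 were called, of which 165 were among the 303. Leaving out 1 array at a time gave 61 genes without the mutant at 6 mM and 471 without WT at 9 mM.

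A total of 46 lists of genes with a common function, holding 1129 genes of which 1062 were measured, are described by their medians and counts, without a test of the list. For all 5212 genes the median difference, mutant at 9 mM minus WT at 3 mM, was 0.02. Over the same genes 10.6% were at least 2-fold higher in the mutant and 12.2% lower, and limma called 1.69% higher and 4.13% lower. At least 2-fold from the median on both arrays were 4.83% above it and 4.07% below it. List counts are to be read beside these shares. In 6 lists the median difference was 0.5 or more and in 7 it was -0.5 or less. The higher lists were general stress, vacuolar proteases, oxidative stress, heat shock chaperones, respiration and aryl alcohol dehydrogenases. The lower lists were lysine synthesis, the wider set of Gcn4 targets, phosphate starvation, nitrogen catabolite repression targets outside allantoin breakdown, the retrograde response, arginine synthesis, and the GATA factors with their partners. Lists share members, with 1198 memberships among the 1129 genes. HSP12 and HSP26 are in both the general stress and the chaperone list, and LYS4, LYS9 and LYS20 in both the lysine and the Gcn4 list. By the list median, the mutant at 9 mM was nearest to WT at 3 mM in 25 lists, at 6 mM in 4 and at 9 mM in 17.

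**Figure D2:**
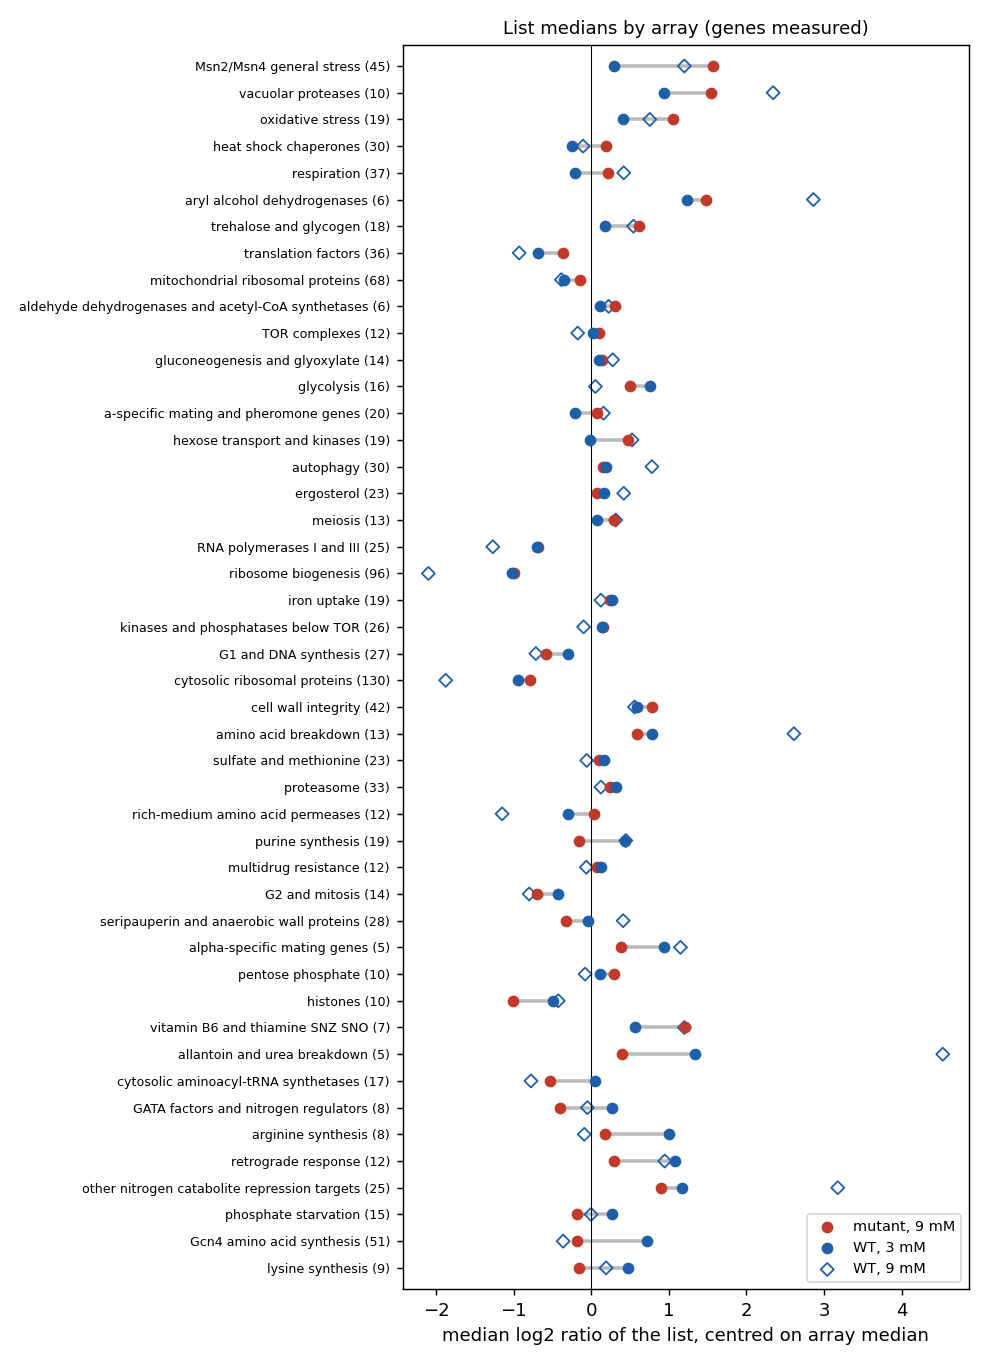
Median centred log2 ratio of each of 46 gene lists in the mutant at 9 mM (red), WT at 3 mM (filled blue) and WT at 9 mM (open diamonds), ordered by the median difference of mutant at 9 mM minus WT at 3 mM, with the number of measured genes in brackets. General stress stands at the top (1.57, 0.29 and 1.20) and lysine synthesis at the bottom (-0.15, 0.48 and 0.19); ribosomal proteins lie mid-order with mutant 9 mM and WT 3 mM close together.

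Ribosome genes had nearly the same level in the mutant at 9 mM as in WT at 3 mM. The cytosolic ribosomal proteins, the building blocks of the translating ribosome, had a median of -0.79 in the mutant at 9 mM and -0.95 in WT at 3 mM, while WT at 6 and 9 mM had -1.61 and -1.87. Of 130 measured genes 42 (32.3%, against 4.07% of all genes) were at least 2-fold below the median on both arrays. Nearest to WT at 3 mM lay 76 (58.5%, against 37.9%), to WT at 6 mM 30 and to WT at 9 mM 24. The median difference was 0.02. At least 2-fold higher were 11 genes (8.5%, against 10.6%) and at least 2-fold lower 16 (12.3%, against 12.2%). Ribosome biogenesis factors, which process ribosomal RNA and assemble the subunits, had a median of -1.0 in the mutant and -1.02 in WT at 3 mM. WT at 6 and 9 mM had -1.53 and -2.10. Of 96 factors 30 (31.2%, against 4.07% of all genes) were 2-fold low on both arrays. RNA polymerases I and III, which transcribe ribosomal, 5S and transfer RNA, had medians of -0.68 in the mutant and -0.70 in WT at 3 mM, against -1.27 in WT at 9 mM. The sign of these small differences depended on the scale: the medians for ribosomal proteins, biogenesis and polymerases were 0.02, 0.12 and 0.12 as centred, 0.27, 0.39 and 0.54 after scaling to a common spread, and -0.21, -0.12 and -0.11 as deposited.

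Of the 130 ribosomal protein genes 6 were called lower, 4.6% against 4.13% of all genes, and 1 higher. With log2(1 + dose) 5 were called higher and 0 lower, and with deposited ratios of 0.10 or less left out 1 of 107 was called lower and 1 higher. RPS9B had -3.11 in the mutant at 9 mM and -0.58 in WT at 3 mM, a fitted difference of -2.26 ± 0.36 (SE; limma adjusted p = 0.00594), and WT at 9 mM had -2.94. RPL24B had -3.30 in the mutant and -0.85 in WT at 3 mM (limma adjusted p = 0.00689), RPL21A -3.30 and -1.34 (0.00862), and RPL22A -3.30 and -1.43 (0.0137). In each of these genes the mutant at 9 mM lay well below WT at 3 mM. WT at 9 mM was low as well, with -3.27 for RPL24B, -3.68 for RPL21A and -2.10 for RPL22A. RPS23A had -2.94 in the mutant and -1.34 in WT, RPL37A -1.79 and -1.13, and RPL4B was the only member called higher, with 1.11 in the mutant and 0.04 in WT. Most yeast ribosomal proteins have a near-identical second gene, so spots of such pairs can share signal. The mutant ratios of RPL24B, RPL21A and RPL22A were 0.07 as deposited, in steps of 0.01.

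Of 96 biogenesis factors 2 were called lower (2.1%, against 4.13% of all genes) and 0 higher (against 1.69%). With log2(1 + dose) 7 were called higher and 0 lower. UTP9, a subunit of the small-subunit processome, had -2.94 in the mutant and -0.11 in WT at 3 mM (limma adjusted p = 0.0327), and CGR1, of the large-subunit pathway, had -2.30 and -1.25 in that order (0.0266). In WT at 9 mM UTP9 had -3.10. MAK16, also of the large-subunit pathway, was apart the other way with -0.75 in the mutant and -3.02 in WT, as was the helicase gene DBP8 with -0.13 in the mutant and -2.88 in WT, and neither was called (limma adjusted p = 0.925 and 0.178). RET1, the second-largest subunit of RNA polymerase III, had 3.00 in the mutant at 9 mM and -0.76 in WT at 3 mM, with -2.68 in WT at 9 mM (limma adjusted p = 0.238). RRN5, a polymerase I initiation factor, had -1.02 in the mutant and 1.64 in WT (limma adjusted p = 0.0207). Translation factors had medians of -0.37 in the mutant and -0.68 in WT at 3 mM. TIF4632, one of the eIF4G scaffolds, was called lower with -2.41 in the mutant and 0.41 in WT (limma adjusted p = 0.0137), and EFB1, an elongation exchange factor, with -2.02 in the mutant and -0.85 in WT (0.0266). In WT at 9 mM TIF4632 had -1.81.

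Nitrogen catabolite repression genes, which Gln3 and Gat1 switch on when good nitrogen sources run out, were above the median in the mutant at 9 mM but below their level in WT at 3 mM. The 25 targets outside allantoin breakdown had a median of 0.90 in the mutant at 9 mM and 1.18 in WT at 3 mM, against 2.68 and 3.18 in WT at 6 and 9 mM, and 19 of the 25 lay nearest to WT at 3 mM. Their median difference was -0.72, with 10 genes at least 2-fold lower (against 12.2% of all genes) and 3 at least 2-fold higher (against 10.6%). At least 2-fold above the median on both arrays were 9 (against 4.83%). After scaling to a common spread the median difference was -1.07. Limma called 1 of the 25 higher (4.0%, against 1.69% of all genes) and 2 lower (8.0%, against 4.13%). With log2(1 + dose) in place of dose it called 0 higher and 9 lower. PRB1, vacuolar protease B, was higher with 2.95 in the mutant and 1.03 in WT (limma adjusted p = 0.0371), and VBA1, a vacuolar basic amino acid transporter, was lower with 0.27 and 1.47 in that order (0.0435), as was CAN1, the arginine permease, with -1.72 and -0.98 (0.0337).

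Several of the nitrogen genes highest in WT at 3 mM were far below it in the mutant. The 4 near-identical ASP3 copies for secreted asparaginase, whose spots may share signal, were all lower. ASP3-1 and ASP3-2 had 0.71 and 1.37 in the mutant at 9 mM, and 3.81 and 4.43 in WT at 3 mM. ASP3-3 and ASP3-4 had 0.93 and 1.90 in the mutant, and 3.42 and 4.27 in WT. CPS1, a vacuolar carboxypeptidase, had 1.26 in the mutant and 3.79 in WT. The ammonium permease gene MEP1 was apart the other way, with 0.41 in the mutant and -2.53 in WT. None of these genes was called, and the limma adjusted p was 0.106 for ASP3-1 and 0.219 for CPS1. The 5 measured genes for allantoin uptake and breakdown had medians of 0.40 in the mutant and 1.34 in WT at 3 mM. WT at 6 and 9 mM had 3.62 and 4.53. All 5 lay nearest to WT at 3 mM, against 37.9% of all genes.

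Within the allantoin genes DAL5 and DAL7 lay farthest below WT at 3 mM in the mutant at 9 mM. DAL5, the allantoate permease, had 1.79 in the mutant at 9 mM and 3.96 in WT at 3 mM (6.19 in WT at 9 mM), and DAL7, a malate synthase, had 0.14 in the mutant and 2.83 in WT (5.08 at 9 mM). The others lay close on the pair: DAL4, the allantoin permease, with 0.99 in the mutant and 1.34 in WT, DAL3 with 0.40 and 0.89, and DAL1, allantoinase, with -0.23 and -0.07. Limma called 0 of the 5, with the lowest adjusted p at 0.071 for DAL1, but 2 were called lower with an intercept for each genotype, with log2(1 + dose) or with values as deposited, and 1 when WT at 9 mM was left out. DAL2 and DUR3, measured on both arrays but not on all 6, had -0.23 and 1.16 in the mutant, and 1.02 and -0.41 in WT.

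Of 8 regulators of these genes 6 were lower in the mutant and 2 higher. At least 2-fold lower were 2 (against 12.2% of all genes) and at least 2-fold higher 0 (against 10.6%). The GATA factors and their partners had medians of -0.40 in the mutant at 9 mM and 0.27 in WT at 3 mM, a median difference of -0.57 over 8 genes. GZF3, a repressing GATA factor, had -1.86 in the mutant and 0.37 in WT, a fitted difference of -2.38 ± 0.49 (SE; limma adjusted p = 0.0154), with 1.65 in WT at 9 mM. DAL80, the other repressing GATA factor, had -1.20 in the mutant and -0.29 in WT (limma adjusted p = 0.0266). GLN3, the activator, had -0.65 in the mutant and 0.70 in WT and was not called (limma adjusted p = 0.0713). DAL82, an activator of allantoin genes, had 0.59 in the mutant and 1.42 in WT. The higher members were GAT1, the second activating GATA factor, with 0.08 in the mutant and -0.61 in WT, and the kinase gene NPR1 with 0.54 and 0.48. Limma called 2 of the 8 lower (against 4.13% of all genes). It called 0 without the mutant at 6 mM, after quantile normalization or with an intercept for each genotype.

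The retrograde response, by which Rtg1 and Rtg3 turn on glutamate supply, had medians of 0.30 in the mutant at 9 mM and 1.09 in WT at 3 mM, and 0.95 in WT at 9 mM. Of 12 genes 4 were at least 2-fold lower (33.3%, against 12.2% of all genes) and 2 at least 2-fold higher (16.7%, against 10.6%). DLD3, a lactate dehydrogenase used as a marker of this pathway, had 0.14 in the mutant, against 3.79 in WT at 3 mM and 2.13 at 9 mM (limma adjusted p = 0.449), and ACO1, aconitase, had 0.61 in the mutant and 1.97 in WT at 3 mM. CIT1, mitochondrial citrate synthase, went the other way and was the only member called, with 2.93 in the mutant and 1.49 in WT (limma adjusted p = 0.019). Amino acid breakdown genes had medians of 0.59 in the mutant and 0.79 in WT at 3 mM, against 2.61 in WT at 9 mM. Of 13 genes 2 were at least 2-fold higher (15.4%, against 10.6% of all genes) and 3 at least 2-fold lower (23.1%, against 12.2%), with a median difference of -0.03. Limma called 3 higher (23.1%, against 1.69%), namely CHA1, ARO9 and ARO10, of which CHA1 lay only 0.095 apart on the arrays. With log2(1 + dose) 0 were called higher and 1 lower.

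General stress genes, the targets of Msn2 and Msn4, broke the likeness most in the upward direction. Their median was 1.57 in the mutant at 9 mM and 0.29 in WT at 3 mM, against 0.84 and 1.20 in WT at 6 and 9 mM. Of 45 measured genes 38 were higher in the mutant, 23 at least 2-fold (51.1%, against 10.6% of all genes). At least 2-fold lower were 2 (4.4%, against 12.2%). Limma called 6 higher (13.3%, against 1.69%) and 0 lower (against 4.13%). By value 23 of the 45 lay nearest to WT at 9 mM, 15 to WT at 6 mM and 7 to WT at 3 mM. Over all genes these shares were 36.0%, 26.1% and 37.9%. The median difference of 1.03 was between 0.80 and 1.10 in the other scalings. Leaving out 1 array at a time, limma called between 3 and 9 of these genes higher and between 0 and 5 lower. Without the mutant at 9 mM the split was 3 higher and 5 lower, and with log2(1 + dose) it called 1 higher and 1 lower.

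The small membrane-associated heat shock protein gene HSP12 had 5.34 in the mutant at 9 mM and 1.40 in WT at 3 mM, 15.3-fold apart, with 4.38 in WT at 9 mM. Its fitted difference was 3.88 ± 0.45 (SE; limma adjusted p = 0.00191). HSP26, a small heat shock chaperone, had 4.94 in the mutant and 0.29 in WT (3.71 in WT at 9 mM), with a fitted difference of 2.79 ± 0.58 (SE; limma adjusted p = 0.0154). Both stood above WT at 9 mM as well, and neither was called with log2(1 + dose) (limma adjusted p = 0.0622 for HSP12 and 0.27 for HSP26). DDR2, a multistress protein gene, had 4.37 in the mutant and 1.18 in WT (limma adjusted p = 0.00593). YGP1, a secreted glycoprotein of starvation, had 4.24 in the mutant and 1.20 in WT (0.00193). PBI2, an inhibitor of vacuolar protease B, had 2.77 in the mutant and 0.67 in WT (0.0235). MSC1 had 4.05 in the mutant and 0.79 in WT and was just outside the threshold (limma adjusted p = 0.0529). WT at 9 mM had 3.47 for DDR2, 2.91 for YGP1, 2.50 for PBI2 and 4.41 for MSC1. Members that went the other way were GLC3, the glycogen branching enzyme, with -1.20 in the mutant and 0.56 in WT, and the chaperone gene HSP42, with -1.25 and 0.49.

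Oxidative stress genes had a median of 1.06 in the mutant at 9 mM and 0.41 in WT at 3 mM. Of 19 genes 7 were at least 2-fold higher (36.8%, against 10.6% of all genes) and 1 at least 2-fold lower (5.3%, against 12.2%). Limma called 3 higher (15.8%, against 1.69%), but 0 with an intercept for each genotype and 1 with log2(1 + dose). TSA2, a thioredoxin peroxidase, had 3.87 in the mutant and 1.37 in WT (limma adjusted p = 0.0261), OYE3, an NADPH dehydrogenase, had 2.75 and 1.10 (0.00941), and GRE2, a methylglyoxal reductase, had 2.12 and 0.74 (0.0419). CTT1, cytosolic catalase, had 2.11 in the mutant and 0.39 in WT at 3 mM, below the 3.99 of WT at 9 mM, and was not called (limma adjusted p = 0.661). Vacuolar proteases and their inhibitors had a median of 1.54 in the mutant and 0.94 in WT at 3 mM, with 5 of 10 at least 2-fold higher (against 10.6% of all genes) and 2 at least 2-fold lower (against 12.2%). PBI2 and PRB1 were called higher and none lower, while log2(1 + dose) gave 0 higher and 2 lower, and leaving out the mutant at 9 mM 0 and 1. TFS1, an inhibitor of carboxypeptidase Y, had 4.29 in the mutant and 1.32 in WT (limma adjusted p = 0.064), while APE1, an aminopeptidase, was lower with 0.90 in the mutant and 2.93 in WT. WT at 9 mM had 5.19 for TFS1 and 3.81 for APE1.

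Heat shock chaperones were split. Their median was 0.20 in the mutant at 9 mM and -0.24 in WT at 3 mM. Of 30 genes 8 were at least 2-fold higher (against 10.6% of all genes) and 2 at least 2-fold lower (against 12.2%). Limma called 3 higher (against 1.69%) and 0 lower (against 4.13%). Without the mutant at 9 mM 1 was called higher and 3 lower, and with log2(1 + dose) 0 and 1. HSP31, a stress-induced glyoxalase, had 3.42 in the mutant and 2.27 in WT (limma adjusted p = 0.0127). SSA3, an inducible Hsp70, had 1.87 in the mutant and -0.05 in WT. Trehalose and glycogen genes, which build reserve carbohydrate, had medians of 0.61 in the mutant and 0.18 in WT at 3 mM. UGP1, which makes UDP-glucose, was called higher with 3.56 in the mutant and 0.92 in WT (limma adjusted p = 0.0106), and PGM1, a phosphoglucomutase, was called lower with -1.58 and -0.34 (0.0149). GPH1, glycogen phosphorylase, had 1.84 in the mutant and 0.02 in WT.

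**Figure D3:**
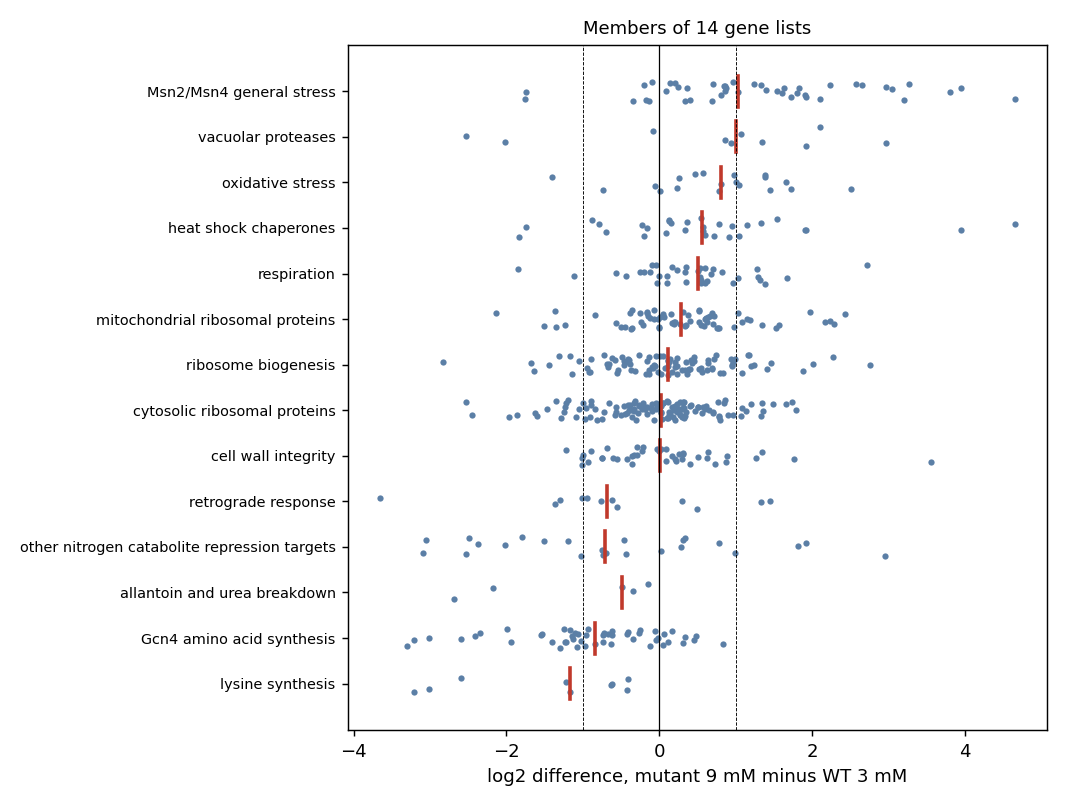
Difference of mutant at 9 mM minus WT at 3 mM in log2 units for each measured gene of 14 lists, with the list median as a red bar and 2-fold marked by dashed lines. The ribosomal protein median sits at 0.02, the general stress median at 1.03 and the lysine synthesis median at -1.18.

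Genes of amino acid synthesis broke the likeness downward. Gcn4 is the transcription factor that turns on these pathways when amino acids run short, and its own mRNA had -2.65 in the mutant at 9 mM, against 0.65 in WT at 3 mM and -0.91 in WT at 9 mM. The fitted difference of GCN4 was -2.82 ± 0.44 (SE; limma adjusted p = 0.00593). GCN4 and the targets listed with it had a median of -0.18 in the mutant at 9 mM and 0.71 in WT at 3 mM, while WT at 9 mM had -0.36. Of 51 measured genes 42 were lower in the mutant, 22 at least 2-fold (43.1%, against 12.2% of all genes). At least 2-fold higher were 0, against 10.6% of all genes. By value 23 of the 51 lay nearest to WT at 9 mM and 16 to WT at 3 mM, against 36.0% and 37.9% of all genes. The median difference of -0.85 was between -1.08 and -0.98 in the other scalings. Limma called 3 of the 51 lower (GCN4, LYS4 and LYS9) and 1 higher. These shares of 5.9% and 2.0% were near the 4.13% and 1.69% of all genes. The gene called higher was CPA1, a subunit of carbamoyl phosphate synthetase, with 1.61 in the mutant and 1.13 in WT (limma adjusted p = 0.0236).

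Lysine synthesis genes had a median of -0.15 in the mutant at 9 mM and 0.48 in WT at 3 mM, a median difference of -1.18, the lowest of the 46 lists, and all 9 genes were lower. LYS4, homoaconitase, had -3.52 in the mutant at 9 mM, -0.32 in WT at 3 mM and -2.68 in WT at 9 mM, a fitted difference of -3.02 ± 0.41 (SE; limma adjusted p = 0.00467). LYS9, saccharopine dehydrogenase, had -2.79 in the mutant and -0.19 in WT, a fitted difference of -3.08 ± 0.49 (SE; limma adjusted p = 0.00593). LYS20, a homocitrate synthase, had -0.86 in the mutant and 2.15 in WT, and LYS12 had -1.52 and -0.29. LYS4 and LYS9 were the 2 members called. Their mutant ratios were among the lowest on the array (0.06 for LYS4 as deposited), and with ratios of 0.10 or less left out the list's median difference was -0.64, no longer the lowest, and 0 of its 7 genes were called. Arginine synthesis genes had medians of 0.18 in the mutant at 9 mM and 1.01 in WT at 3 mM, with ARG1, argininosuccinate synthetase, at 0.48 in the mutant and 2.42 in WT. Cytosolic aminoacyl-tRNA synthetases, which charge tRNA with amino acids, had medians of -0.52 in the mutant and 0.05 in WT, and limma called 0 of 17.

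Phosphate starvation genes, under the factor Pho4, had medians of -0.18 in the mutant at 9 mM and 0.27 in WT at 3 mM. Of 15 genes 6 were at least 2-fold lower (against 12.2% of all genes) and 0 at least 2-fold higher (against 10.6%). Limma called 3 lower (against 4.13%), between 1 and 4 when 1 array was left out. SPL2, a regulator of low-affinity phosphate uptake, had -3.30 in the mutant and -0.70 in WT, a fitted difference of -3.07 ± 0.38 (SE; limma adjusted p = 0.00193). VTC1, of the polyphosphate polymerase, had -1.11 in the mutant and 0.28 in WT (limma adjusted p = 0.0275), PHO12, an acid phosphatase, had -1.20 and -0.11 (0.023), and PHO84, the high-affinity transporter, had -1.72 and 0.02 (0.0542, not called). WT at 9 mM had -0.68 for SPL2, 0.14 for VTC1 and -2.68 for PHO84. The seripauperins and anaerobic wall proteins are a family of closely similar genes whose spots may share signal. Of 28 genes 6 were called lower (21.4%, against 4.13% of all genes) and 0 higher. After scaling to a common spread 2 were called lower, and 1 after quantile normalization. PAU6 had -2.65 in the mutant and 0.66 in WT, PAU8 had -2.79 and 0.48, and PAU10 had -1.25 and 0.24 (limma adjusted p = 0.00593, 0.00594 and 0.0274). In WT at 9 mM PAU6, PAU8 and PAU10 had -0.51, -1.74 and -0.24. PAU7 had 1.05 in the mutant and -0.53 in WT and was not called.

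The proteasome, the complex that degrades ubiquitin-tagged proteins, had nearly equal medians of 0.25 in the mutant at 9 mM and 0.32 in WT at 3 mM. Limma called 3 of 33 genes lower (9.1%, against 4.13% of all genes), between 1 and 6 when 1 array was left out and 1 with log2(1 + dose). RPN12, a lid subunit, had -2.65 in the mutant and 0.59 in WT (limma adjusted p = 0.0136), SCL1, a core subunit, had -2.20 and 0.91 (0.00623), and RPN4, the transcription factor for proteasome genes, had -1.47 and 0.61 (0.048). WT at 9 mM had -1.87 for RPN12, -0.20 for SCL1 and -1.31 for RPN4. RPT6, an ATPase of the base, had 1.67 in the mutant and -0.43 in WT and was not called (limma adjusted p = 0.19). Histone genes had medians of -1.0 in the mutant and -0.50 in WT at 3 mM, with 5 of 10 genes higher and 5 lower. At least 2-fold lower were 3 (against 12.2% of all genes) and at least 2-fold higher 1 (against 10.6%). Limma called 3 lower (against 4.13%), between 1 and 4 when 1 array was left out. HTB1 had -2.52 in the mutant and -0.15 in WT (limma adjusted p = 0.0118), HTA2 had -2.20 and -1.09, and HHF2 had -1.52 and -0.58. WT at 9 mM had -1.68 for HTB1 and -0.34 for HTA2. HHO1, the linker histone, was 2-fold higher with 0.72 in the mutant and -0.41 in WT, and was not called. Histone genes also come as near-identical pairs.

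Genes of the cell wall integrity pathway, whose kinase Slt2 caffeine is known to activate, had like medians on the pair. These were 0.79 in the mutant at 9 mM and 0.59 in WT at 3 mM, with 0.56 in WT at 9 mM, a median difference of 0.01, 21 genes higher and 21 lower. Of 42 genes 12 (28.6%, against 4.83% of all genes) were at least 2-fold above the median on both arrays. Among them were PST1, and SLT2, the kinase itself, with 1.71 in the mutant and 2.46 in WT. Limma called 1 higher (2.4%, against 1.69% of all genes) and 1 lower (2.4%, against 4.13%). SPI1, a wall protein gene of stationary phase, had 3.88 in the mutant and 0.33 in WT (limma adjusted p = 0.00792), and ROM1, an exchange factor of the pathway, had -1.11 and -0.17 (0.0403). The yapsin protease genes YPS1 and YPS5 had 2.19 and 1.72 in the mutant, and 0.86 and 0.47 in WT.

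Respiration genes had medians of 0.21 in the mutant at 9 mM and -0.21 in WT at 3 mM, with 0.42 in WT at 9 mM. COR1, of the cytochrome bc1 complex, was called higher with 2.16 in the mutant and -0.56 in WT (limma adjusted p = 0.033), and RIP1, the iron-sulfur protein of the same complex, was called lower with -2.02 and -0.17 (0.00594). Mitochondrial ribosomal proteins had medians of -0.14 in the mutant and -0.35 in WT at 3 mM, with 12 of 68 at least 2-fold higher (17.6%, against 10.6% of all genes) and 5 at least 2-fold lower (7.4%, against 12.2%). Limma called 3 higher (4.4%, against 1.69%) and 1 lower (1.5%, against 4.13%). It called 0 in either direction after scaling to a common spread or quantile normalization, and 0 higher and 6 lower without the mutant at 9 mM. MRPL8 and MRPL31 were called higher, with 1.44 and 1.45 in the mutant, and -0.98 and -0.79 in WT (limma adjusted p = 0.0433 each), as was MRPS18. RSM22 was called lower, with -1.86 in the mutant and 0.28 in WT (limma adjusted p = 0.0393). The aryl alcohol dehydrogenases had medians of 1.48 in the mutant and 1.24 in WT at 3 mM, against 2.86 in WT at 9 mM, and limma called 0 of 6. Their median difference of 0.50 was -0.07 after scaling to a common spread.

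Over all named genes, the largest difference among the calls was that of ARO9, an aromatic aminotransferase of the fusel alcohol pathway. It had 4.81 in the mutant at 9 mM, against -0.61 in WT at 3 mM and 4.81 in WT at 9 mM, 42.8-fold apart, with a fitted difference of 2.79 ± 0.63 (SE; limma adjusted p = 0.0241). ARO10, the phenylpyruvate decarboxylase of the same pathway, had 4.38 in the mutant, 0.79 in WT at 3 mM and 4.78 in WT at 9 mM (limma adjusted p = 0.00593). For these genes the mutant at 9 mM lay close to WT at 9 mM. Of the 12 calls with the highest array differences YGP1 alone was still called with log2(1 + dose), and of the 12 with the lowest SRS2, PRM10, PAU6, GCN4, PAU8, LYS4 and SCL1 were. RTN2, a reticulon protein gene, had 3.99 in the mutant and 0.20 in WT at 3 mM (0.0284), and SIP18, a desiccation protein gene, had 3.59 and 0.82 (0.0193), with 3.47 and 2.51 in WT at 9 mM.

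ECM31, CDC34 and SNP1 were high in the mutant at 9 mM and less than 2-fold above the median on every WT array. ECM31, of pantothenate synthesis, had 2.57 in the mutant at 9 mM, against -1.25, -0.67 and -0.46 in WT at 3, 6 and 9 mM (limma adjusted p = 0.043). CDC34, the ubiquitin-conjugating enzyme that drives entry into S phase, had 3.08 in the mutant, against 0.12, 0.22 and 0.24 in WT (0.0122). SNP1, the U1 snRNP protein, had 3.13 in the mutant, against 0.21, 0.81 and -0.31 in WT (0.0232). In the mutant at 3 and 6 mM these genes had -0.26 and 0.29 (ECM31), 0.41 and 0.72 (CDC34), and 0.13 and 0.64 (SNP1), so the high value stood on the 9 mM array alone.

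The call with the lowest array difference was SRS2, a DNA helicase that dismantles recombination filaments, with -2.30 in the mutant at 9 mM, against 1.60 in WT at 3 mM and 1.65 in WT at 9 mM. Its fitted difference was -3.03 ± 0.46 (SE; limma adjusted p = 0.00593). CTP1, the mitochondrial citrate transporter, had -2.02 in the mutant, 1.81 in WT at 3 mM and -0.84 in WT at 9 mM (limma adjusted p = 0.0389). PRM10, a pheromone-regulated membrane protein gene, had -2.52 in the mutant and 0.95 in WT at 3 mM (0.00593). In SRS2 the mutant and WT lay on opposite sides of the median at the top dose as well, whereas in GLY1, QRI7, CDC26 and LYS4 WT at 9 mM was low as well. GLY1, threonine aldolase, had -3.30 in the mutant, -0.11 in WT at 3 mM and -3.94 in WT at 9 mM (limma adjusted p = 0.0166). QRI7, of mitochondrial tRNA modification, had -2.65, 0.48 and -2.94 on those arrays (0.0461), CDC26, of the anaphase-promoting complex, had -2.94, 0.09 and -2.46 (0.0106), and LYS4 is given above.

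**Figure D4:**
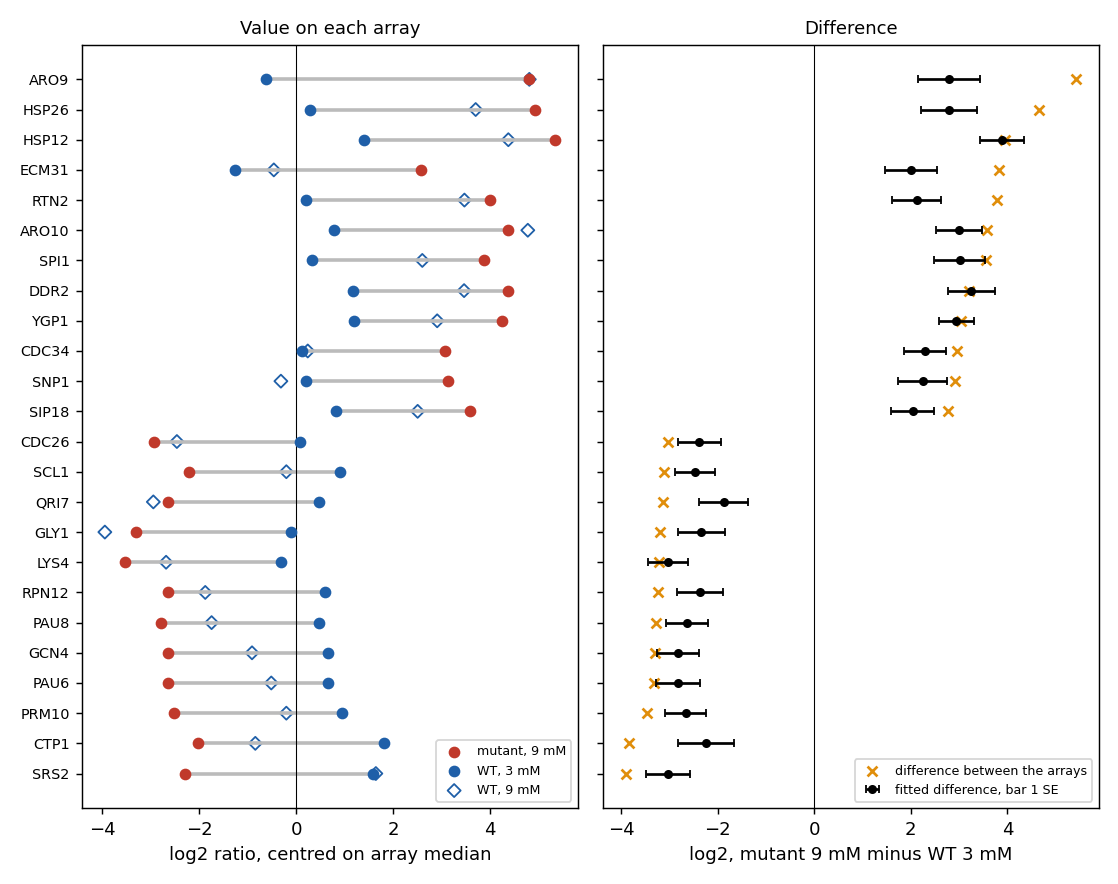
Left, centred log2 ratios in the mutant at 9 mM (red), WT at 3 mM (blue) and WT at 9 mM (open diamonds) of the called genes with the 12 highest and 12 lowest array differences. Right, the fitted difference with 1 SE (black) and the difference of the 2 arrays (orange crosses). ARO9 and HSP26 are farther apart on the arrays (5.42 and 4.65) than on the fitted lines (2.79 each), while HSP12 is the same on both (3.94 and 3.88).

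Genes on opposite sides of the median by at least 2-fold on both arrays were few and most were not called. Apart from ECM31, those high in the mutant and low in WT by the largest margin were CSH1, of sphingolipid synthesis, with 1.48 in the mutant and -1.21 in WT, ERP6 with 1.14 and -1.13, MRPL4 with 1.19 and -1.09, and the mitotic exit phosphatase gene CDC14 with 1.08 and -1.25. Apart from SRS2 and CTP1, those low in the mutant and high in WT were FRE4, a ferric reductase, with -2.11 and 2.60 (limma adjusted p = 0.0992), CDC60, leucyl-tRNA synthetase, with -2.30 and 1.78 (0.0647), and DDI2, a cyanamide hydratase, with -1.41 and 1.29, which was called (0.0227). WT at 9 mM had -0.71 for FRE4, -2.18 for CDC60 and 0.46 for DDI2.

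TOR1 and TOR2 were not called. TOR1 had 0.37 in the mutant at 9 mM and -0.25 in WT at 3 mM, a fitted difference of 0.46 ± 0.35 (SE; limma adjusted p = 0.386). TOR2, the kinase gene shared with TOR complex 2, had -0.44 in the mutant and -0.13 in WT (limma adjusted p = 0.218). Of 12 genes of the TOR complexes 1 was called, and it was lower (8.3%, against 4.13% of all genes). KOG1, the Raptor counterpart of TOR complex 1, had -1.94 in the mutant at 9 mM, against -0.39 in WT at 3 mM and -1.36 in WT at 9 mM, a fitted difference of -1.60 ± 0.37 (SE; limma adjusted p = 0.025). These are responses to caffeine within a strain, and no array compared the 2 alleles with each other.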

How the data were processed

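Polyadenylated RNA was measured on two-colour arrays, with untreated RNA in Cy3 and caffeine-treated RNA in Cy5, per the labels. The values the authors deposited were log2 ratios: 2 to the power of each was a ratio with 2 decimals for 100.0% of values. The sources used here do not give background correction or normalization, and scanner files were not analysed here. Of 6214 probes, 5596 had 1 gene symbol in the platform annotation, 0 had several and 618 were unlisted. Spots of a gene were averaged (34 genes), giving 5561 genes, and each array was centred on its median.

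Limma 3.58.1 (R 4.3.3; lmFit, eBayes) fitted a slope in dose for each genotype without intercept to all 6 arrays, with 4 residual and 9.69 prior degrees of freedom. The contrast was 9 times the mutant slope minus 3 times the WT slope, 2-sided. Simulated data for this contrast over 5212 genes held 40 genes for each size of change. Of these, 70% with a change of 2 and 2.5% with a change of 1 were called. The shares were 60% and 7.5% for changes of -2 and -1, with 1 false call. These rates hold for the simulated data only. They cannot give the power or the false calls on the real arrays, where the calls changed with the form of the lines. The p-values measure the departure of arrays from lines, which may be technical, and leave out the spread of untreated RNA.

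The 2 arrays, the comparison and the gene lists were chosen with earlier results of these data known. Named genes were the 12 highest and 12 lowest differences among called genes with that sign on the arrays, the 8 highest and 8 lowest on both arrays, up to 5 in each opposite direction, up to 4 of each list by absolute difference, and TOR1 and TOR2. Other list members named were those called, the allantoin and ASP3 genes, GAT1, NPR1, HSP42 and SLT2, chosen after their values were seen. Promoter motifs were not examined. Other scalings, spot summaries, fold thresholds and forms of the fit were tried.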

Additional observations from a re-analysis of the deposited data

How the results depend on the processing

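No paired analysis was possible because each genotype and dose had 1 array and the labels give no replicate numbers. With values as deposited, 364 genes were at least 2-fold higher, 81 were high on both arrays, 566 low on both, and 5 high in the mutant and low in WT; 3 lists lay at 0.5 or more and 14 at -0.5 or less; and limma called 45 higher and 848 lower. At 1.5-fold, 1171 genes were higher and 1174 lower, 622 high on both, 606 low on both, 80 high in the mutant and low in WT, and 103 the reverse; at 3-fold these were 166, 263, 50, 41, 0 and 4. Limma called 11 higher and 60 lower after scaling to a common spread, 25 and 58 after quantile normalization, 27 and 107 with an intercept for each genotype, 0 and 0 with a shared intercept, 7 and 38 at an adjusted p below 0.01, and 365 and 522 below 0.10. Leaving out 1 array at a time gave 20 to 192 higher and 41 to 404 lower. Among lists at 0.5 or more or -0.5 or less, the only median that reversed was that of the aryl alcohol dehydrogenases, -0.072 after scaling. Smaller list medians also changed sign with the scale, among them those of the ribosome lists given above. The causes were not tested. The fitted differences of the 24 strongest calls lost their call under a shared intercept in 24 of 24 cases, and under log2(1 + dose) in 16. Signal over background was not examined, and 24 genes had a ratio of 0.10 or less, where the last decimal is coarse.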
